A study of Mus musculus with 26 samples.

Results

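Ribosome biogenesis factor genes encode the proteins that transcribe, modify, cut and fold ribosomal RNA and assemble it with ribosomal proteins into subunits. The members were 35 genes given by name, and rows of the deposited count table were matched to them by symbol with case ignored. All 35 were found among the 55391 named rows of the table, and all 35 passed the filter on low counts that left 14264 genes for testing. They comprise 4 subunits of RNA polymerase I, 5 proteins of the small nucleolar ribonucleoproteins (snoRNPs), 5 other nucleolar proteins, 13 factors of the small subunit and 8 factors of the large subunit. RNA was sequenced from EA1, EA2 and EA3, murine lung cancer cell lines from C57BL/6 mice that carry the EML4-ALK fusion (variant 1), after culture with 100 nM alectinib, an ALK tyrosine kinase inhibitor, or with 0.1% DMSO, its solvent. The tumors of origin arose after adenoviral delivery of Cas9 and guides against Eml4 and Alk. Each line is a single model, so that a difference between lines cannot be told apart from a difference of the mice or the laboratory of origin. Each line, treatment and day had 1 library, on days 1, 2, 3 and 5, which gives 4 libraries per line and treatment and 24 in all.

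A ribosome is built in the nucleolus. RNA polymerase I makes a long precursor RNA, snoRNPs guide chemical marks onto it, and a large assembly of factors, the small subunit processome, folds and cuts it before the precursors of both subunits part and leave for the cytoplasm. Growing tumor cells make many ribosomes, and many genes of this pathway are known targets of the transcription factor MYC, which binds the E-box sequence with its partner MAX. Growth factor receptor signaling, which ALK fusions mimic, is known to raise both Myc expression and ribosome production. The question addressed here was how far these 35 genes changed with alectinib in each line, and how this compared with the change of Myc in the same libraries.

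Library totals ran from 5780062 to 11732401 counts (median 9252878), and the members held between 54 and 29084 counts in a library, so that counting error weighs most on the least abundant members. No day was repeated within a line and treatment, and the 4 days served as replicates. The SD of a level therefore holds any change over days, whereas the fold changes were fitted within each line and day, so that their SE holds only changes of the alectinib effect over days, beside the spread between cultures. Of 10 epithelial markers, Cdh1, Krt8, Krt18 and Krt19 were detected in each of the 24 libraries, Epcam and Cldn7 were at 0 counts in 4 libraries each and Cldn4 in 12, and Nkx2-1 and Sftpc, which mark lung alveolar cells, in 22 each. The summed level of the epithelial markers was 4633 to 9254 CPM with DMSO and 3246 to 5368 CPM with alectinib in EA1. In EA2 the treatments did not overlap, at 1811 to 2695 CPM with DMSO and 567 to 1169.5 CPM with alectinib, and in EA3 it was 4788 to 6937 CPM and 3105 to 7243 CPM. With alectinib, the summed level of 8 fibroblast transcripts was higher in all 3 lines. It was 9.08 to 44.1 CPM in the DMSO and 126 to 478 CPM in the alectinib libraries of EA1. EA2 had 58.5 to 71.5 CPM with DMSO against 122 to 240 CPM with alectinib, and EA3 had 10.2 to 20.2 CPM against 84.8 to 274 CPM. Thy1 was at 0 counts in 16 libraries and Lum in 19. The share of mitochondrial counts was 1.19% to 1.97% with DMSO and 2.35% to 2.77% with alectinib in EA1, 1.38% to 2.02% and 1.45% to 2.43% in EA2, and 1.49% to 2.71% and 2.50% to 3.85% in EA3. The part of these values in the results was not tested. A further pair of libraries, labelled EA3 day 7, correlated more with EA2 (r of 0.967 and 0.986 across genes) than with EA3 (0.887 and 0.876) and was left out of every comparison.

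Most of the ribosome biogenesis factor genes passed the test as lower with alectinib in EA1 and EA3, and few did in EA2. Whether called or not, 35 members had a fold change below 0 in EA1 (46.3% of all genes), 34 in EA3 (46.2%) and 33 in EA2 (50.5%). By edgeR's quasi-likelihood test, 32 of 35 fell in EA1, where 14.6% of all genes tested were lower. In EA3, 23 of 35 fell, against 15.1% of all genes. In EA2, 6 of 35 fell, against 11.3% of all genes, and without the line and day block this count was 2. No member rose in any line, at an adjusted p under 0.05 or an unadjusted one, and DESeq2 called none either, while 19.0%, 13.0% and 17.5% of all genes rose in EA1, EA2 and EA3. The median log2 fold change of the members was −1.06 for EA1, −0.32 for EA2 and −0.62 for EA3, beside medians of all genes of 0.065, 0.00 and 0.067. CPM are shares of the polyadenylated RNA of a culture, so that fewer cells expressing a gene and less RNA of that gene per cell cannot be told apart. In EA1, 21 of 35 members had every alectinib library below every DMSO library, as did 13.0% of all genes. In EA3, 13 of 35 members were apart in this way against 10.7% of all genes, and in EA2 4 of 35 were against 12.5%. With a log2 fold change of at least 1 also asked for, 19 members were lower in EA1 (5.95% of all genes), 0 in EA2 (6.59%) and 6 in EA3 (7.09%). Without day 3, 23 members fell in EA1, and without day 1, 12 fell in EA3. The EA2 count was 1 without day 1, 1 without day 2 and 3 without day 3.

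**Figure D1:**
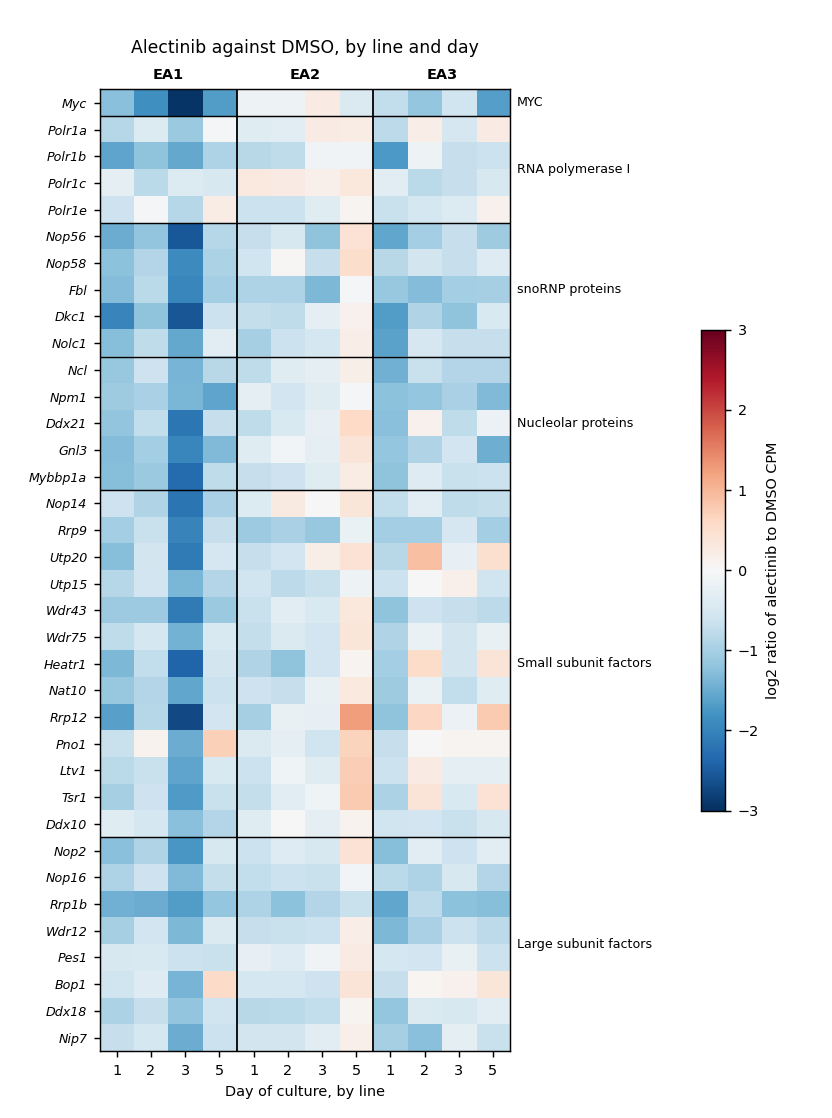
Log2 ratio of the alectinib to the DMSO library of the same line and day for Myc and the 35 genes (rows, grouped by role) in EA1, EA2 and EA3 on days 1, 2, 3 and 5 (columns); blue is lower and red is higher with alectinib. EA1 is lower nearly throughout, most on day 3 (median −1.56), and EA2 turns to slightly higher on day 5 (median 0.23).

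The ratio of a single day shows how the change ran over time, and it moves with either library of the pair. The summed DMSO level of the members was highest on day 3 in EA1 and on day 1 in EA3. From day 1 to day 5 in EA2, the summed level went from 9470 to 6434 CPM with DMSO and from 6262 to 7419.8 CPM with alectinib. Over the lines, the median slope of the members' levels on days, given below, was −0.36 with DMSO and −0.15 with alectinib. In EA1 the median log2 ratio of the 35 members was −1.06 on day 1, −0.73 on day 2, −1.56 on day 3 and −0.67 on day 5. In EA2 it was −0.68, −0.53 and −0.36 on days 1, 2 and 3, and 0.23 on day 5, when 7 of 35 members were lower, beside 47.6% of all genes. In EA3 it was −1.03 on day 1 and −0.49, −0.61 and −0.49 on days 2, 3 and 5. All 4 ratios were negative for 32 members in EA1 against 21.8% of all genes, for 24 in EA3 against 20.4%, and for 7 in EA2, a share near the 21.5% of all genes. The alectinib effect was then tested for a change per doubling of days within each line. No member passed this test in any line by edgeR or DESeq2, in a comparison that called 0.021%, 0.0% and 0.0491% of all genes as falling in EA1, EA2 and EA3. At an unadjusted p under 0.05, 3 members had a rising slope in EA2, against 1.92% of all genes, and none had a slope in either direction in EA1 or EA3. The median slope was 0.04, 0.36 and 0.24 per doubling of days in EA1, EA2 and EA3. This test called very few genes of any kind, so that the trend in EA2 was not resolved.

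Myc (chr15:61985391-61990374 of mm10), which encodes the transcription factor, had its lowest fold change in EA1 and its highest in EA2, as did the median of the members, although the place of EA3 between them did not pass a test for Myc on either side. Here and below, the 4 CPM values of a line and treatment are those of days 1, 2, 3 and 5 in that order. Myc was at 190.2, 255, 546 and 209.8 CPM in the DMSO libraries of EA1 and at 80.0, 71.8, 70.9 and 65.5 CPM in its alectinib libraries. In EA2, Myc was at 318, 334, 363 and 333 CPM with DMSO and at 286, 301, 428 and 247 CPM with alectinib. In EA3, Myc was at 313, 355, 392 and 356 CPM with DMSO and at 187, 158, 259 and 114 CPM with alectinib. The groups did not overlap in EA1 and EA3, and they overlapped in EA2, where day 3 was higher with alectinib. The EA1 DMSO culture of day 3 held the most Myc of all 24 libraries. The log2 fold change was -1.92 ± 0.24 for EA1 (adjusted p = 9.74e-05), -0.12 ± 0.23 for EA2 (adjusted p = 0.741) and -1.04 ± 0.24 for EA3 (adjusted p = 0.00486). The 95% confidence interval in EA2, -0.62 to 0.38, still allowed a fall. A test with 2 degrees of freedom found that the Myc effect differed between lines (adjusted p = 0.0165), which became 0.0704, 0.0562 and 0.0515 without day 2, day 3 or day 5. Without day 5, the fall of Myc in EA3 was −0.83 and missed the threshold. Mycn had 0 counts in all EA2 libraries and at most 66 counts in EA1 and 54 in EA3, and Mycl reached at most 30.6 CPM in any library, beside 586 counts or more of Myc in every library. With alectinib Mycl rose by 1.52, 1.09 and 1.55 on the log2 scale in EA1, EA2 and EA3 (adjusted p = 0.00905, 0.0436 and 0.00655), and Mycn rose in EA1 (adjusted p = 0.00344), both from low counts.

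The order of the members' fold changes matched that of Myc, EA1 lowest, EA3 between and EA2 highest, for 26 of 35 genes, whereas 19.4% of all genes tested had this order. Of the others, 6 had EA1 lowest and EA3 highest, 2 had EA3 lowest and EA2 highest, and 1 had EA2 lowest and EA1 highest. Day by day, the match was partial. In EA1, Myc and the members were both lowered most on day 3, with Myc at −2.94 and the members' median at −1.56 on the log2 scale. In EA3, the members were lowered most on day 1 (−1.03), when the log2 ratio of Myc was −0.74, and Myc was lowered most on day 5 (−1.65), when the members stood at −0.49. In EA2, the members were lower on day 1 by a median of −0.68 with Myc at −0.15, and on day 5 the members were above DMSO (0.23) with Myc at −0.43. The members and Myc come from the same libraries, so these ratios share the depth and the scaling of each pair.

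**Figure D2:**
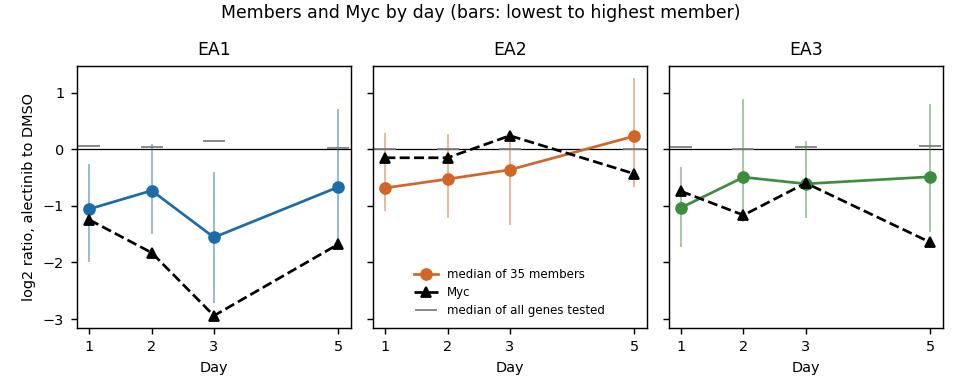
Log2 ratio of alectinib to DMSO by day in each line for the median of the 35 genes (circles, with bars from the lowest to the highest gene), for Myc (triangles) and for the median of all genes tested (grey dashes). In EA2 the circles run from −0.68 on day 1 to 0.23 on day 5 while Myc stays between −0.43 and 0.24.

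Promoters of the members were searched for the palindrome CACGTG, the canonical E-box, which reads the same on both strands. RefSeq windows of GRCm38.p6, from 250 bases before to 50 bases after the annotated start, were in the table used for 31 of the 35 members. Rrp12, Fbl, Npm1 and Bop1 had no entry in it. For 26 of the 31, bases 21 to 50 after the start lay in the longest coding transcript of the gene. The motif lay in 8 of 31 windows (25.8%), against 8.09% of 27025 genes, and each of the 8 held it once. These 27025 genes are all those with a window, not only genes among the 14264 tested here, so this background is not limited to expressed genes. In 7 of the 8 its centre lay between 5 and 43 bases past the start, and in Nop2 it lay 57 bases before it. From the start onwards, 7 of 31 windows (22.6%) held the motif against 1.55% of all genes, a part of the window chosen after the positions were seen, and before the start 1 of 31 (3.23%) against 6.86%. Among 91 other ribosome biogenesis genes with a window, 17 held the motif (18.7%), with 8.79% from the start onwards and 13.2% before it. A match of letters is not a binding site. The 30-base stretches that hold the motif in the 7 genes with a match past the start are given 5′ to 3′ on the strand of the gene, with the E-box in capitals, so that their differing flanks can be compared.
Mybbp1a: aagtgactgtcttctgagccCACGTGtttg
Wdr43: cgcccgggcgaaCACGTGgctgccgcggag
Pes1: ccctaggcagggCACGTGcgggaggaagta
Utp20: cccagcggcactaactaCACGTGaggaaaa
Tsr1: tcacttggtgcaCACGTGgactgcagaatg
Pno1: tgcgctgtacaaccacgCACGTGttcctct
Ltv1: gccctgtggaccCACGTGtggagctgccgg
These stretches lie at chr11:72441347-72441376, chr17:71616220-71616249, chr11:3963965-3963994, chr10:88826765-88826794, chr11:74898092-74898121, chr11:17211540-17211569 and chr10:13193092-13193121, the genes of Utp20, Pno1 and Ltv1 being on the minus strand and the others on the plus strand. The 250 bases before the start are shown for Nop2, the member with an E-box ahead of its start, and for Ncl and Ddx21, abundant members with no match anywhere in the window. The whole Ncl window (chr1:86359406-86359705) lay ahead of the GENCODE start of that gene at chr1:86359400 on the minus strand.
Nop2: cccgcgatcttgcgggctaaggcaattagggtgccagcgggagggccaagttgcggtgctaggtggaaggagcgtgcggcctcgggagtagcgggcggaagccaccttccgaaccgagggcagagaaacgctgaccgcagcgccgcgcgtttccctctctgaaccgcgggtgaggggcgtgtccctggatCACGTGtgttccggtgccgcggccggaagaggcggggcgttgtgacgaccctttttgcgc
Ncl: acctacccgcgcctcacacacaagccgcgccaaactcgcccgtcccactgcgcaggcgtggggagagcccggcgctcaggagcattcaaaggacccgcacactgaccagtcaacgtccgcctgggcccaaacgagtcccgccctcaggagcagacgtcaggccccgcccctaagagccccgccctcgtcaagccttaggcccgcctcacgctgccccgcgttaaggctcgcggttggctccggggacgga
Ddx21: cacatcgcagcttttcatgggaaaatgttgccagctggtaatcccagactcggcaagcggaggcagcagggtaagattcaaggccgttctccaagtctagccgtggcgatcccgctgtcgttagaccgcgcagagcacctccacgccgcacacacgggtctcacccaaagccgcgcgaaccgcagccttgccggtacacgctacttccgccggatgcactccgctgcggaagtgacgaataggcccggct
They lie at chr6:125131633-125131882 on the plus strand and at chr1:86359456-86359705 and chr10:62602299-62602548 on the minus strand. Members with the motif included Mybbp1a and Wdr43, which fell by 1.36 and 1.35 on the log2 scale in EA1, and Pno1, which did not pass the test in any line (−0.34 in EA1). Ncl and Ddx21, with no match, also fell in EA1 (−1.001 and −1.19).

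**Figure D3:**
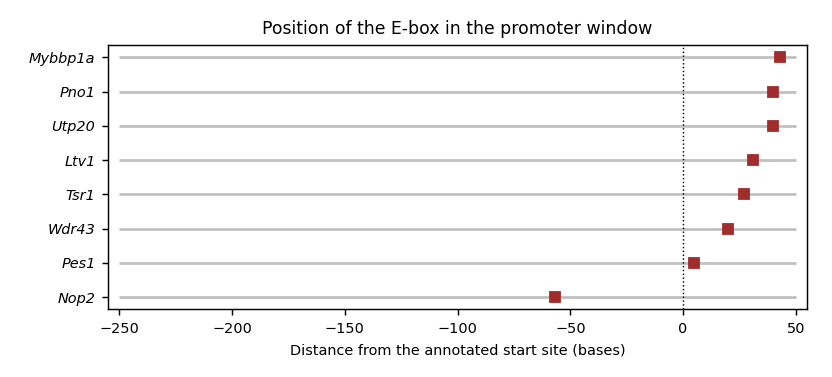
Position of the E-box centre (squares) in the promoter windows of the 8 genes that hold it, in bases from the annotated start site (dotted line); grey lines are the windows, from 250 bases before to 50 bases after the start. In 7 genes it lies 5 to 43 bases past the start, and in Nop2 57 bases before it.

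RNA polymerase I transcribes the ribosomal RNA precursor. Of its 4 subunits measured, 3 fell in EA1, none in EA2 and 2 in EA3, with median log2 fold changes of −0.55, −0.23 and −0.47. Polr1a (chr6:71909053-71984935) encodes the largest subunit and had the highest mean log2 CPM of the group, not corrected for length. Polr1a was at 150.4, 106, 140.2 and 61.1 CPM in the DMSO libraries of EA1 and at 83.0, 79.6, 64.9 and 58.2 CPM in its alectinib libraries. In EA2, Polr1a was at 148, 138, 89.1 and 118 CPM with DMSO and at 115, 109, 106 and 138 CPM with alectinib. In EA3, Polr1a was at 231, 106, 159 and 80.9 CPM with DMSO and at 133, 121, 111 and 96.4 CPM with alectinib. The treatments overlapped in all 3 lines, and its log2 fold change was -0.61 ± 0.21 for EA1 (adjusted p = 0.0361), -0.064 ± 0.21 for EA2 (adjusted p = 0.858) and -0.22 ± 0.21 for EA3 (adjusted p = 0.451). Polr1c (chr17:46243920-46248054) encodes a subunit shared with RNA polymerase III. Polr1c was at 49.7, 61.8, 43.9 and 49.1 CPM in the DMSO libraries of EA1 and at 41.2, 35.3, 33.2 and 34.9 CPM in its alectinib libraries. In EA2, Polr1c was at 54.4, 65.2, 60.4 and 46.1 CPM with DMSO and at 66.3, 77.2, 67.1 and 57.1 CPM with alectinib. In EA3, Polr1c was at 89.1, 126, 96.2 and 104 CPM with DMSO and at 71.9, 72.5, 59.7 and 75.1 CPM with alectinib. The treatments did not overlap in EA1 and EA3, where alectinib was lower, and overlapped in EA2, where it was higher on each day. Its log2 fold change was -0.49 ± 0.13 for EA1 (adjusted p = 0.00939), 0.25 ± 0.13 for EA2 (adjusted p = 0.176) and -0.57 ± 0.13 for EA3 (adjusted p = 0.00404). Polr1b, which encodes the second largest subunit, fell by 1.32 in EA1 and by 0.81 in EA3, and Polr1e did not pass the test in any line (−0.34, −0.39 and −0.38).

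SnoRNPs methylate and pseudouridylate ribosomal RNA. All 5 members of this group fell in EA1 and all 5 in EA3, with median log2 fold changes of −1.27 and −1.07, and 1 of 5 fell in EA2, where the median was −0.49. Nolc1 (chr19:46075863-46085530), whose product accompanies snoRNPs in the nucleolus, had the highest mean log2 CPM of the group, close to that of Nop56. Nolc1 was at 245, 167, 244 and 82.9 CPM in the DMSO libraries of EA1 and at 102, 99.1, 83.7 and 66.3 CPM in its alectinib libraries. In EA2, Nolc1 was at 358, 362, 217 and 224 CPM with DMSO and at 178, 233, 151 and 259 CPM with alectinib. In EA3, Nolc1 was at 466, 184, 262 and 153 CPM with DMSO and at 153, 131, 162 and 94.7 CPM with alectinib. The treatments overlapped in each line, and in EA2 alectinib was lower on days 1, 2 and 3 and higher on day 5. Nolc1 had a log2 fold change of -0.98 ± 0.24 for EA1 (adjusted p = 0.00654), -0.49 ± 0.23 for EA2 (adjusted p = 0.146) and -0.87 ± 0.23 for EA3 (adjusted p = 0.0121). Nop58 (chr1:59684971-59719044) encodes a core protein of the box C/D snoRNPs, which guide methylation. Nop58 was at 226, 192, 322 and 132 CPM in the DMSO libraries of EA1 and at 96.8, 104, 85.5 and 67.9 CPM in its alectinib libraries. In EA2, Nop58 was at 245, 233, 207 and 159 CPM with DMSO and at 161, 238, 128 and 229 CPM with alectinib. In EA3, Nop58 was at 267, 194, 193 and 137 CPM with DMSO and at 150.2, 132, 119.6 and 105 CPM with alectinib. Every alectinib library of EA1 was below every DMSO library, and EA2 and EA3 overlapped. Its log2 fold change was -1.24 ± 0.21 for EA1 (adjusted p = 0.00065), -0.19 ± 0.20 for EA2 (adjusted p = 0.546) and -0.62 ± 0.20 for EA3 (adjusted p = 0.0326). The lowest fold changes of EA1 among all 35 members were those of Dkc1, the pseudouridine synthase of box H/ACA snoRNPs (−1.61, 3.06-fold lower), and of Nop56, the partner of Nop58 (−1.52, 2.86-fold lower). Fbl, the methyltransferase fibrillarin, was the member of this group that fell in all 3 lines, by 1.27 in EA1, by 0.82 in EA2 and by 1.11 in EA3.

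Nucleolar proteins of broader roles were represented by 5 members, all of which fell in EA1, 4 of 5 in EA3 and none in EA2 (median log2 fold changes of −1.24, −0.97 and −0.32). Npm1 (chr11:33152287-33163206) encodes nucleophosmin, an abundant histone and ribosomal protein chaperone. Npm1 was at 1545, 1290.2, 1228 and 1286 CPM in the DMSO libraries of EA1 and at 743, 658, 477 and 429 CPM in its alectinib libraries. In EA2, Npm1 was at 1954, 2298, 1675 and 1387 CPM with DMSO and at 1598, 1548, 1305 and 1341 CPM with alectinib. In EA3, Npm1 was at 1980.2, 1799.7, 1348 and 1567 CPM with DMSO and at 848, 804, 692 and 630.1 CPM with alectinib. The treatments were apart in all 3 lines except that the day 5 DMSO library of EA2 fell within the alectinib range. With alectinib, Npm1 averaged 1448 ± 146 CPM in EA2 (SD, n = 4), above the 577 ± 148 CPM of EA1 and the 744 ± 100.2 CPM of EA3. The log2 fold change was -1.24 ± 0.14 for EA1 (adjusted p = 3.97e-05), -0.32 ± 0.14 for EA2 (adjusted p = 0.114) and -1.17 ± 0.14 for EA3 (adjusted p = 7.14e-05). Gnl3 (chr14:31012433-31019152) encodes nucleostemin, a nucleolar GTPase abundant in stem and tumor cells. Gnl3 was at 137, 108, 162 and 80.9 CPM in the DMSO libraries of EA1 and at 55.7, 53.3, 41.8 and 32.1 CPM in its alectinib libraries. In EA2, Gnl3 was at 133, 137, 116 and 87.9 CPM with DMSO and at 104, 129, 94.5 and 115 CPM with alectinib. In EA3, Gnl3 was at 111, 80.5, 97.2 and 90.0 CPM with DMSO and at 49.1, 42.7, 65.2 and 32.5 CPM with alectinib. Its groups did not overlap in EA1 and EA3 and overlapped in EA2. Gnl3 had a log2 fold change of -1.40 ± 0.18 for EA1 (adjusted p = 0.00012), -0.091 ± 0.18 for EA2 (adjusted p = 0.757) and -1.03 ± 0.18 for EA3 (adjusted p = 0.00097). Ncl, which encodes nucleolin, and Mybbp1a fell in EA1 (−1.001 and −1.36) and EA3 (−0.97 and −0.73), and the helicase gene Ddx21 fell in EA1 (−1.19) and did not pass the test in EA3 (−0.52).

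The small subunit processome and the later factors of that subunit were the largest group. Of 13 members, 12 fell in EA1, 5 in EA3 and 2 in EA2. The median log2 fold changes for EA1, EA2 and EA3 were −1.06, −0.16 and −0.27. Wdr43 (chr17:71615895-71659031), a processome component, had an E-box past its start. Wdr43 was at 162, 142, 293 and 111 CPM in the DMSO libraries of EA1 and at 76.3, 66.5, 67.2 and 50.9 CPM in its alectinib libraries. In EA2, Wdr43 was at 588, 603, 527 and 409 CPM with DMSO and at 371, 474, 381 and 511 CPM with alectinib. In EA3, Wdr43 was at 277, 159.8, 199 and 134 CPM with DMSO and at 119.8, 103, 124 and 77.7 CPM with alectinib. EA2 held more Wdr43 than the other lines under both treatments, and its lowest library was above the highest library of either. Its log2 fold change was -1.35 ± 0.20 for EA1 (adjusted p = 0.000277), -0.29 ± 0.19 for EA2 (adjusted p = 0.308) and -0.83 ± 0.20 for EA3 (adjusted p = 0.00588). Nop14 (chr5:34638536-34660148) encodes another processome component. Nop14 was at 85.2, 113, 214 and 79.7 CPM in the DMSO libraries of EA1 and at 55.2, 60.6, 46.5 and 40.6 CPM in its alectinib libraries. In EA2, Nop14 was at 114, 108, 136 and 101 CPM with DMSO and at 85.4, 130.3, 134 and 129 CPM with alectinib. In EA3, Nop14 was at 164, 117, 147 and 112 CPM with DMSO and at 98.0, 91.9, 86.2 and 67.7 CPM with alectinib. In EA1 and EA3 the treatments were apart, and in EA2 they overlapped. Its log2 fold change was -1.17 ± 0.22 for EA1 (adjusted p = 0.0014), 0.047 ± 0.21 for EA2 (adjusted p = 0.904) and -0.65 ± 0.21 for EA3 (adjusted p = 0.0317). Rrp9, which encodes a protein of the snoRNP that starts processome assembly, fell in all 3 lines (−1.11, −0.85 and −0.90). Utp15 fell in EA1 (−0.92) and EA2 (−0.55). Rrp12, an export factor, fell by 1.46 in EA1 and stood at −0.061 in EA2 and −0.021 in EA3, the EA3 value turning to 0.096 when libraries were scaled by their totals alone. Utp20, another processome gene, was at 0.067 in EA3, which turned to −0.20 without the line and day block. The late factor Pno1 did not pass the test in any line.

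Factors of the large subunit numbered 8, of which 7 fell in EA1, 7 in EA3 and 3 in EA2. The median log2 fold changes for EA1, EA2 and EA3 were −0.86, −0.39 and −0.71. Pes1 (chr11:3963975-3980004), Bop1 and Wdr12 encode the partners of a complex needed to process the RNA of that subunit. Pes1 was at 139.9, 123, 117 and 112 CPM in the DMSO libraries of EA1 and at 99.6, 89.7, 75.1 and 70.1 CPM in its alectinib libraries. In EA2, Pes1 was at 178, 246, 164 and 154 CPM with DMSO and at 149.7, 189, 152 and 184 CPM with alectinib. In EA3, Pes1 was at 187, 186, 123 and 136 CPM with DMSO and at 130.3, 124, 106 and 87.3 CPM with alectinib. Only EA1 had all alectinib libraries below all DMSO libraries. Pes1 had a log2 fold change of -0.56 ± 0.13 for EA1 (adjusted p = 0.00419), -0.12 ± 0.13 for EA2 (adjusted p = 0.516) and -0.49 ± 0.13 for EA3 (adjusted p = 0.00953). Its partner Wdr12 fell in EA1 (−0.85) and EA3 (−0.94), whereas Bop1 did not pass the test in any line (−0.46, −0.33 and −0.038), and its EA3 value turned to 0.078 when libraries were scaled by their totals alone. Nop2 (chr6:125131909-125144753) encodes an RNA methyltransferase of the large subunit. Nop2 was at 142, 112, 154 and 57.0 CPM in the DMSO libraries of EA1 and at 59.7, 59.3, 45.4 and 40.6 CPM in its alectinib libraries. In EA2, Nop2 was at 179, 183, 118 and 113 CPM with DMSO and at 115, 140.3, 84.0 and 152 CPM with alectinib. In EA3, Nop2 was at 293, 144, 180.5 and 99.7 CPM with DMSO and at 122, 115, 118 and 79.2 CPM with alectinib. The treatments overlapped in each line, in EA1 because the day 5 DMSO library was low. Its log2 fold change was -1.10 ± 0.23 for EA1 (adjusted p = 0.00244), -0.27 ± 0.22 for EA2 (adjusted p = 0.402) and -0.64 ± 0.22 for EA3 (adjusted p = 0.0412). Rrp1b, a nucleolar factor, had the lowest fold change of all members in both EA2 and EA3 and fell in all 3 lines, by 1.46 in EA1, by 0.92 in EA2 and by 1.22 in EA3. Nop16 and the helicase gene Ddx18 also fell in all 3 lines, Nop16 by 0.90, 0.54 and 0.78 and Ddx18 by 0.86, 0.57 and 0.61 in EA1, EA2 and EA3.

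**Figure D4:**
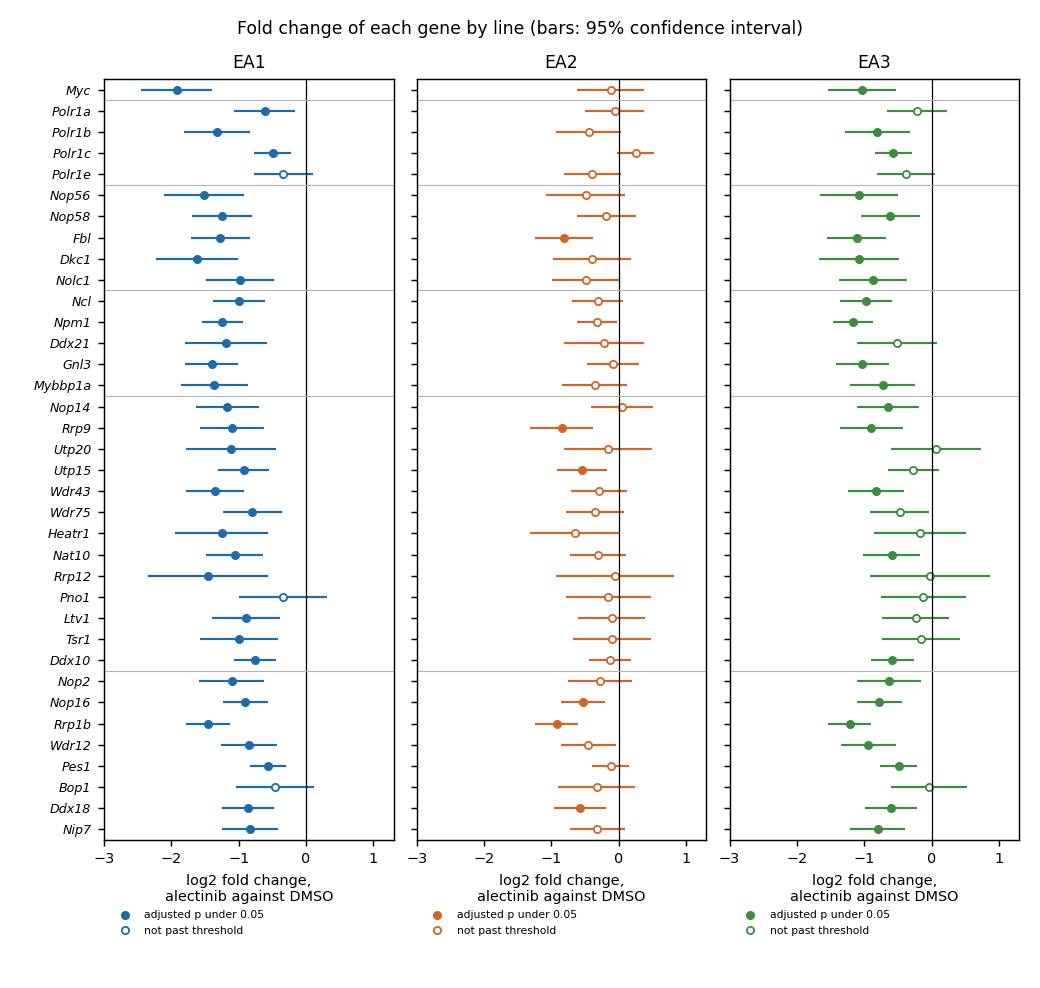
Log2 fold change of alectinib against DMSO (points) with its 95% confidence interval (bars) for Myc and the 35 genes in EA1, EA2 and EA3; filled points have an adjusted p under 0.05. In EA1 32 genes are filled, in EA3 23 and in EA2 6, the EA2 genes being Fbl, Rrp9, Utp15, Nop16, Rrp1b and Ddx18.

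Across lines, 18 members fell in both EA1 and EA3 but did not pass the test in EA2, 8 passed in EA1 alone, 5 fell in all 3 lines, 1 fell in EA1 and EA2, and 3 passed in none. Among all genes tested, 4.42%, 4.88%, 4.23% and 1.05% had the first 4 of these patterns. Such counts do not test the difference between lines, which was done with the test with 2 degrees of freedom. It called 3 of 35 members, beside 6.84% of all genes, a share near this background. These were Gnl3 (adjusted p = 0.0174), Npm1 (0.0182) and Polr1c (0.0219). Leaving out a day gave 0 or 1 member, whereas DESeq2 and no filter on low counts each called more members, as listed below. Taken in pairs, the alectinib effect was higher in EA2 than in EA1 for 6 of 35 members, against 2.26% of all genes, and lower for none, against 4.19%. The 6 were Polr1c, Nop58, Npm1, Gnl3, Nop14 and Wdr43, and the difference was largest for Gnl3, at 1.31 on the log2 scale (95% interval 0.76 to 1.86, adjusted p = 0.0103). The same difference for Myc was 1.80 (1.08 to 2.52, adjusted p = 0.00823). Without day 5, none of the members passed this pairwise test, without day 3 only 1 did, and without day 2 2 did.

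Between EA2 and EA3, the effect was higher in EA2 for 2 members, Polr1c and Npm1, against 1.18% of all genes, and lower for none, against 1.68%. Polr1c differed by 0.82 (adjusted p = 0.0287) and Npm1 by 0.85 (adjusted p = 0.0352), and neither passed when any day was left out. Myc differed between these lines by 0.91 (0.20 to 1.62), with an adjusted p of 0.158. Between EA3 and EA1 no member passed by edgeR or DESeq2 in either direction, beside 0.477% of all genes higher and 1.31% lower, and 6 members were higher in EA3 at an unadjusted p under 0.05, against 6.65% of all genes. The Myc effect was 0.88 higher in EA3 than in EA1 (0.16 to 1.60, adjusted p = 0.226).

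**Figure D5:**
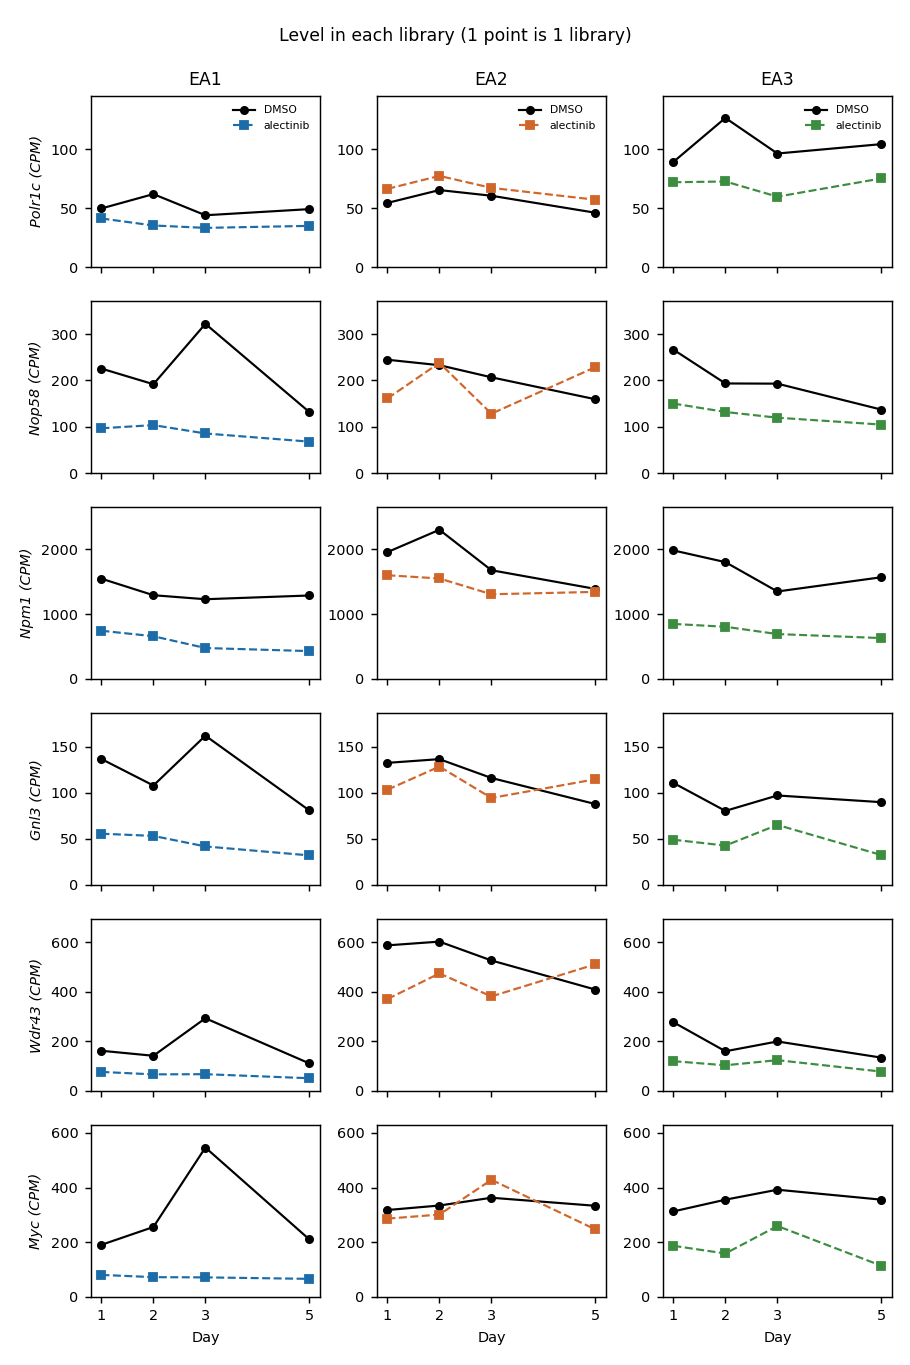
CPM (axis from 0) by day for Polr1c, Nop58, Npm1, Gnl3, Wdr43 and Myc (rows) in EA1, EA2 and EA3 (columns), with DMSO as black circles and alectinib as colored squares, 1 point per library. Gnl3 in EA1 lies between 80.9 and 162 CPM with DMSO and between 32.1 and 55.7 CPM with alectinib, and the treatments cross in EA2 on day 5.

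Levels between genes were compared per kilobase of merged exons over the 12 DMSO libraries. Npm1 was highest at 605 ± 126 CPM per kb (SD, n = 12), followed by Ncl at 144 ± 45.0 and Mybbp1a at 106 ± 42.4. Nop56, Ddx21, Wdr43 and Nolc1 followed at 63.3 ± 23.0, 63.2 ± 28.2, 62.9 ± 38.7 and 62.2 ± 26.4 CPM per kb, within the spread over these libraries. Their order was not the same in each line, since Wdr43 stood at 37.0 CPM per kb in EA1, 111 in EA2 and 40.3 in EA3. In EA2 Nop56, Ddx21 and Nolc1 were at 70.5, 70.3 and 73.1 CPM per kb. Wdr12 was lowest at 4.50 ± 1.43 CPM per kb over the 12 libraries, with Polr1e next at 7.01 ± 3.67, although Polr1e was at 4.11 in EA1, 11.0 in EA2 and 5.96 in EA3. This order rests on the merged length of all annotated exons, 11955 bases for Wdr12 and 3897 for Polr1e. By CPM with DMSO, Wdr12 was above Polr1e, at means of 43.6, 60.7 and 57.0 against 16.0, 42.7 and 23.2 in EA1, EA2 and EA3.

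Fewer members passed a test between lines with DMSO than with alectinib. Within the 12 DMSO libraries, a test between lines with the day as a block called 7 of 35 members, against 55.6% of all genes. EA2 was higher than EA1 in 7 members, against 20.5% of all genes, and lower in none, against 20.3%. This count was 4 without day 1, 2 without day 2, 16 without day 3, 2 without day 5, 3 without the block and 11 with library totals alone. EA2 was higher than EA3 in 4 members, against 17.1% of all genes, and lower in 1, Polr1c (−0.91, adjusted p = 0.000531), against 19.3%. The 4 became 7 without day 1 or day 3 and 1 without day 2, without day 5 or without the block, and 8 with library totals alone or with no filter on low counts. Between EA2 and EA1, Wdr43 differed most, by 1.61 ± 0.23 on the log2 scale (SE, adjusted p = 0.000156). Within the 12 alectinib libraries, the test called 29 of 35 members, against 63.2% of all genes. Here EA2 was above EA1 in 32 of 35 members, with 23.9% of all genes higher and 23.9% lower, and the median difference was 0.95. EA2 was above EA3 in 15 members (20.9% of all genes higher, 23.4% lower), and EA3 was above EA1 in 16 (20.8% of all genes higher, 17.9% lower). No member passed as lower in EA2 than in either other line with alectinib, by edgeR or DESeq2, at an adjusted or an unadjusted p under 0.05. Without day 2, EA2 was above EA3 in 6 members, and EA3 was above EA1 in 10 without day 1, 7 without day 2 and 7 without day 3. For Myc, the lines did not pass the test with DMSO (adjusted p = 0.41) and did with alectinib (adjusted p = 3.38e-05), where EA2 was above EA1 by 2.06 ± 0.17.

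The summed level of the 35 members, in which the abundant Npm1 and Ncl weigh most, was also read in single libraries. It was 7513, 5819.8, 8266 and 4360.3 CPM in the DMSO libraries of EA1 on days 1, 2, 3 and 5, and 3502, 3339, 2584 and 2292 CPM with alectinib. In EA2 it was 9470.2, 10006, 7085 and 6434 CPM with DMSO, and 6262, 7177, 5397 and 7419.8 CPM with alectinib. In EA3 it was 10934, 6536, 6497 and 5024 CPM with DMSO, and 4767, 4197, 3932 and 2915 CPM with alectinib. The alectinib libraries of EA2 on days 2 and 5 stood above its DMSO libraries of days 3 and 5, whereas in EA1 and EA3 every alectinib library was below every DMSO library. Taken singly, 21, 4 and 13 of 35 members were apart in this way in EA1, EA2 and EA3, against 13.0%, 12.5% and 10.7% of all genes. Npm1 and Ncl made up 1567 and 966 of the 5024 CPM in the EA3 DMSO library of day 5.

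Levels were also tested for a change with days in culture. In the DMSO libraries, the level fell with each doubling of days in 10 of 35 members, against 7.61% of all genes, and rose in none, against 7.75%. All 35 slopes were negative, as were 48.2% over all genes, with a median of −0.36 on the log2 scale. The steepest slopes of members past the threshold were those of Utp20 (−0.65 ± 0.16, adjusted p = 0.022) and Bop1 (−0.62 ± 0.17, adjusted p = 0.0304). This count rested on which days were used, being 0 without day 1, 0 without day 5, 2 without day 2 and 26 without day 3. In the alectinib libraries, no member passed by edgeR, against 0.148% of all genes falling and 0.393% rising, although all 35 slopes were again negative (median −0.15, with 50.8% of all genes negative), 13 had an unadjusted p under 0.05 (5.47% of all genes) and DESeq2 called 4 (1.29%). The slope of Myc was 0.15 ± 0.15 with DMSO (adjusted p = 0.557) and −0.090 ± 0.13 with alectinib (adjusted p = 0.801).

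A wider list of 109 other ribosome biogenesis genes was read from the same fit. All 109 were tested, and 72 fell in EA1, 16 in EA2 and 47 in EA3, against 14.6%, 11.3% and 15.1% of all genes. With a day left out these counts were 46 to 80, 4 to 17 and 28 to 47. The lowest came without day 3 in EA1 and without day 2 in EA2, and in EA3 both day 1 and day 2 gave 28. None rose in EA1 or EA3, at an adjusted p under 0.05, and Eif6, whose product keeps the large subunit from joining too early, rose by 0.78 in EA2 (adjusted p = 0.00698), a call that was lost without day 2 and without day 5. Eif6, Ruvbl1, Ruvbl2 and Naf1 are named here because of their values. The medians were −0.63, −0.20 and −0.42, each nearer to 0 than those of the 35 members. Of the 10 other snoRNP genes, such as the assembly helicase genes Ruvbl1 and Ruvbl2, 8 fell in each line. In EA2 this was 3 without day 1, 2 without day 2, 4 without day 3, 4 without the line and day block and 4 with no filter on low counts. Ruvbl2 fell by 1.26 in EA1, by 1.10 in EA2 and by 1.26 in EA3. The 44 other large subunit genes fell in 35, 2 and 19 cases in EA1, EA2 and EA3, and the 40 other small subunit genes in 22, 5 and 13. With a day left out, the large subunit counts were as low as 22 in EA1 (day 3), 0 in EA2 (day 1, 2 or 3) and 10 in EA3 (day 1 or 2), and the small subunit counts 14 (day 3), 1 (day 3) and 6 (day 2). Over all settings, the EA2 count ran from 0 to 7 (each line fitted alone) for the large subunit. For the small subunit it ran from 1 to 8 (library totals alone). Between lines, Naf1, a snoRNP assembly factor gene, was among the 6 of 109 that passed, against 6.84% of all genes (adjusted p = 0.00609), with log2 fold changes of −1.31, 0.13 and −0.97.

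Some members have stretches that closely match transcripts of other genes. Stretches of at least 97% identity over 150 bases or more to transcripts of other genes covered 87.8% of the Ddx18 transcript, 57.6% of Fbl, 53.8% of Npm1, 39.0% of Nop56 and 15.7% of Wdr12, and the values of these genes are uncertain to that extent. Exons of Tsr1 overlap those of Srr on the opposite strand over 32.3% of their length, and the strand setting of the deposited counts was not given in the sources used here.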

How the data were processed

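Total RNA of cultured cells was made into stranded poly(A) libraries, and read quality was examined with FastQC. Reads were trimmed with bbduk and mapped to mm10 with STAR, and the authors deposited raw counts that STAR's own counter gave for each gene. The strand column and the annotation release are not given in the sources used here. The 24 rows that name no gene (0.129% to 0.201% of a library's counts) were left out. The tests used edgeR 4.0.16 in R 4.3.3 (TMM factors, filterByExpr by line and treatment, quasi-likelihood test with robust estimation) with summaries made in Python 3.11.15. A single fit held 24 libraries, 12 line and day blocks and an alectinib effect per line. Adjusted p-values (Benjamini-Hochberg) cover all genes tested, with a threshold of 0.05. Deviations of the paired DMSO and alectinib libraries correlated between −0.3 and 0.549, the pairing being the shared line and day in the labels. Other fits tested differences between lines, slopes per doubling of days, and levels within a treatment (12 libraries). CPM are scaled by TMM. Nothing says that days came from separate cultures, so p-values measure only the spread between these libraries. Fold changes are given ± SE.

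In each role, the member with the highest mean log2 CPM and the one with the smallest p between lines (the next smallest where both are 1 gene, as for Pes1) are given in full, with the 3 lowest and 3 highest fold changes per line and the members past the test between lines. The members, roles and lists were chosen with earlier results of these data known. Alternatives were DESeq2 1.42.0, its size factors, library totals alone, no filter, at least 10 counts in every library, no block, each line alone, each day left out, and a log2 fold change of at least 1. The calculations were tested on simulated data. Gene coordinates are those of the GENCODE annotation of mm10, and promoter windows those of RefSeq on GRCm38.p6.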

Additional observations from a re-analysis of the deposited data

Results flagged for a closer look

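The alectinib effect differed between lines by the test with 2 degrees of freedom for Gnl3 (adjusted p = 0.0174), Npm1 (adjusted p = 0.0182), Polr1c (adjusted p = 0.0219) and Myc (adjusted p = 0.0165). The 3 members of 35 are a share near the 6.84% of all genes. Leaving out a day left 0 or 1 member, whereas DESeq2 and no filter on low counts each called more members. The Myc call was lost without day 2, day 3 or day 5. Gnl3, Npm1 and Myc were lower with alectinib in EA1 and EA3 and did not pass the test in EA2, and Polr1c was lower in EA1 and EA3 and higher on each of the 4 days in EA2, at a log2 fold change of 0.25 that did not pass the test.

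A library stood far from the other 3 of its group in 2 of the 78 groups of 4 examined, where chance alone gives about 1 in 20 groups. Nop14 was at 85.4 CPM in the EA2 alectinib library of day 1, with the next at 129 CPM and the highest at 134 CPM. Nop2 was at 79.2 CPM in the EA3 alectinib library of day 5, with the next at 115 CPM and the highest at 122 CPM.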

How the results depend on the processing

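With a log2 fold change of at least 1, 19 members fell in EA1, 0 in EA2 and 6 in EA3, against 5.95%, 6.59% and 7.09% of all genes. Leaving out a day gave 23 to 33 members lower in EA1, 1 to 8 in EA2 and 12 to 22 in EA3, with medians of −1.23 to −0.84, −0.51 to −0.22 and −0.77 to −0.54. The other alternatives gave 30 to 32 in EA1, lowest without the line and day block, and 18 to 24 in EA3, lowest with library totals alone. Without the line and day block, 2 members fell in EA2, 3 differed between EA2 and EA1 and 1 between EA2 and EA3, 3 differed in level between lines with DMSO, and 8 other genes fell in EA2. Except with the fold limit on members, these counts are given without the share of all genes under the same setting. That share also moves, being 2.26% by edgeR and 4.52% by DESeq2 for an effect higher in EA2 than in EA1. The counts therefore show only how the calls depend on the setting. The test between lines called 6 members by DESeq2, 13 with no filter on low counts and 0 to 1 with a day left out. For EA2 against EA1 the count was 3 with library totals alone, 15 with no filter and 0 to 4 with a day left out. For EA2 against EA3 it was 0 with library totals alone and with each day left out, and for EA3 against EA1 it was 3 with no filter. Members declining with days in DMSO numbered 17 by DESeq2, 21 with no filter and 0 to 26 with a day left out, and in alectinib 4 by DESeq2 and 0 to 4. Levels differed between lines with DMSO in 14 members with library totals alone, 14 with no filter and 3 to 17 with a day left out. Of the other genes, 46 to 80 fell in EA1, 4 to 17 in EA2 and 28 to 47 in EA3 with a day left out, 7 in EA2 with no filter, 31 in EA3 with library totals alone, and 21, 3 and 11 with a log2 fold change of at least 1. Of these genes, 0 to 1 rose in EA2 and 0 to 1 in EA3 with a day left out, 0 in EA2 with the fold limit and 1 in EA3 with library totals alone. The log2 fold change of Myc in EA3 was −1.21 to −0.83 with a day left out, and missed the threshold only without day 5. The E-box share was 3.23% before the start. Library totals alone moved the median of all genes from 0.067 to 0.182 in EA3.

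Fold changes of named members that did not pass the test, between −0.34 and 0.067, changed sign in 19 cases. With library totals alone, Bop1 and Rrp12 in EA3 were at 0.078 and 0.096 and Nop14 in EA2 at −0.0026, and without the line and day block Utp20 in EA3 was at −0.20. With a day left out, EA2 values ran from −0.25 to 3.6e-05 for Gnl3, from −0.060 to 0.20 for Nop14, from −0.17 to 0.041 for Polr1a, from −0.50 to 0.26 for Rrp12 and from −0.37 to 0.023 for Utp20. EA3 values ran from −0.17 to 0.18 for Bop1, from −0.22 to 0.067 for Pno1, from −0.29 to 0.39 for Rrp12 and from −0.25 to 0.38 for Utp20, and Pno1 in EA1 ran from −0.73 to 0.0015. The causes of these changes were not tested.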

Other observations

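The libraries labelled EA3 day 7 (7694291 counts with DMSO and 11511425 with alectinib) entered no comparison. In this pair, 28 of 35 members were lower with alectinib, with a median log2 ratio of −0.52 and a range from −1.53 to 0.88, and the log2 ratio of Myc was −0.94. The median over all genes tested was 0.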
